A study of Mus musculus with 6 samples.

Results

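Nfkbia, Tnfaip3, Birc3, Nfkb2, Relb, Tnfaip2, Cxcl1, Ccl2, Il33 and Il18 are genes around the transcription factor NF-κB: most encode regulators that feed back on it, its own subunits or cytokines whose transcription it drives. The cells were mPAC L20, a duct line from mouse pancreas, measured on 6 arrays. In the shAtoh8 group (3 arrays) an adenovirus carried a short hairpin directed at Atoh8, which encodes a transcription factor of the basic helix-loop-helix class, and in the shControl group (3 arrays) its hairpin was scrambled. Cells of both groups then received a second adenovirus that expressed Neurogenin 3 (Neurog3), the factor that starts endocrine differentiation, so no sample was free of virus. Each hairpin virus and the Neurog3 virus were used at a multiplicity of infection of 40, and the cells were kept for another 44 to 46 h. The arrays carry replicate numbers 1 to 3, which per the labels mark independent experiments in this single line. Members were the probe sets annotated with exactly 1 of these symbols: 21 probe sets for all 10 genes, of 45037 probe sets and 18193 genes tested. The brightest probe set of a gene, by its mean on the 6 arrays, stands for the gene, and its other probe sets are given beside it.

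NF-κB dimers of Rel proteins wait in the cytoplasm bound to IκB inhibitors, and a kinase complex activated by cytokine receptors, Toll-like receptors or viral RNA sensors marks the inhibitor for destruction. The released dimers switch on their own inhibitors, among them IκBα and A20, which ends the response, along with chemokines that attract neutrophils and monocytes. A slower branch runs through the kinase NIK, which turns the Nfkb2 product p100 into p52, the partner of RelB. Epithelial cells, pancreatic duct cells among them, use this system to answer injury and infection.

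The hairpin's target checks the labels. Atoh8 read 7.83, 7.90 and 7.37 (log2 signal) in shAtoh8 replicates 1, 2 and 3, against 8.75, 8.29 and 7.52 in shControl, a log2 fold change of -0.49 ± 0.30 (SE) that did not pass (limma adjusted p = 0.573; 0.157 with the replicate number as a block). The Neurog3 probe sets were almost equally bright (59.6 and 59.5 percentiles) and differed in sign, each in all 3 replicate numbers. The first had a log2 fold change of -0.57 ± 0.48 and fell under the block (limma adjusted p = 0.0330). The other had 0.18 ± 0.17 and did not pass (0.400). Duct markers were bright, with all 7 measured ones above the median probe set. The mean of their log2 signals was 11.35 to 11.46 in shAtoh8 and 11.55 to 11.64 in shControl. With the replicate block 1 of the 7, Epcam, fell (-0.73 ± 0.19, limma adjusted p = 0.0463, and 0.145 without it), as did 2.75% of all genes. The dimmer Epcam set was positive. Of the 7, 6 had a negative value, beside 46.9% of all genes. Epcam and Krt7 (-0.25 ± 0.09, limma adjusted p = 0.263) were lower at an unadjusted p under 0.05, beside 8.82% of all genes. The mean over 7 leukocyte markers was 6.04 to 6.10 in shAtoh8 and 6.12 to 6.15 in shControl, and over 6 fibroblast markers 4.76 to 4.78 and 4.75 to 4.88. No leukocyte or fibroblast marker passed in limma (0, and 0 at an unadjusted p under 0.05). Of all genes, 0.638% were called lower and 0.517% higher, and 8.82% and 8.72% at the unadjusted p. Ptprc, which defines leukocytes, lay at the 12.4 percentile of all probe sets, while Cd14 lay at the 97.6 percentile. The shAtoh8 replicate 2 array stood apart by dimmer hybridisation spikes (a mean of 9.48, where the remaining arrays had 9.85 to 10.10) and by its actin probe sets, whose 3' minus 5' difference was 0.354 and elsewhere 0.107 to 0.202.

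In shAtoh8 cells 9 of the 10 genes had a negative log2 fold change, as had 46.9% of all genes, and Il18 a positive one. The median was -0.62 over the 10 genes, beside 0.01 over all 18193. Birc3 alone passed at an adjusted p under 0.05 in limma, and fell; 0.638% of all genes were called lower by this rule. None of the 10 was called higher (0, and 0 at an unadjusted p under 0.05), beside 0.517% of all genes (8.72% at the unadjusted p). All 9 with a negative value had an unadjusted p under 0.05, as did 8.82% of all genes in that direction. In 8 of the 10 genes every shAtoh8 array read below every shControl array, which held for 11.4% of all genes. The genes were chosen with earlier results of these arrays known, so these counts describe them and are no separate evidence. RNA came from whole cultures, so fewer cells making a transcript and less of it per cell cannot be told apart.

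The replicate numbers were taken to pair the arrays, from correlations on these same arrays and not from the labels. A second fit took the number as a block, and its values stand beside those of the first where a call differs. With the block 5 of the 10 genes fell (Birc3, Nfkbia, Tnfaip2, Ccl2 and Il33) and none rose (0, with Il18 at an adjusted p of 0.157), beside 2.75% of all genes called lower and 1.92% called higher. Within replicate numbers the same 9 genes were lower in all 3 pairs, as were 21.5% of all genes, and Il18 was higher in all 3, as were 24.0%. Replicate 3 had the widest difference in 9 of the 10 genes, with Il33 the exception. For Atoh8, the hairpin's target, replicate 3 had the narrowest difference (-0.15, against -0.92 and -0.39 in replicates 1 and 2). The part of the Atoh8, Epcam, Krt7 and Neurog3 differences in the values of the 10 genes was not tested.

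**Figure D1:**
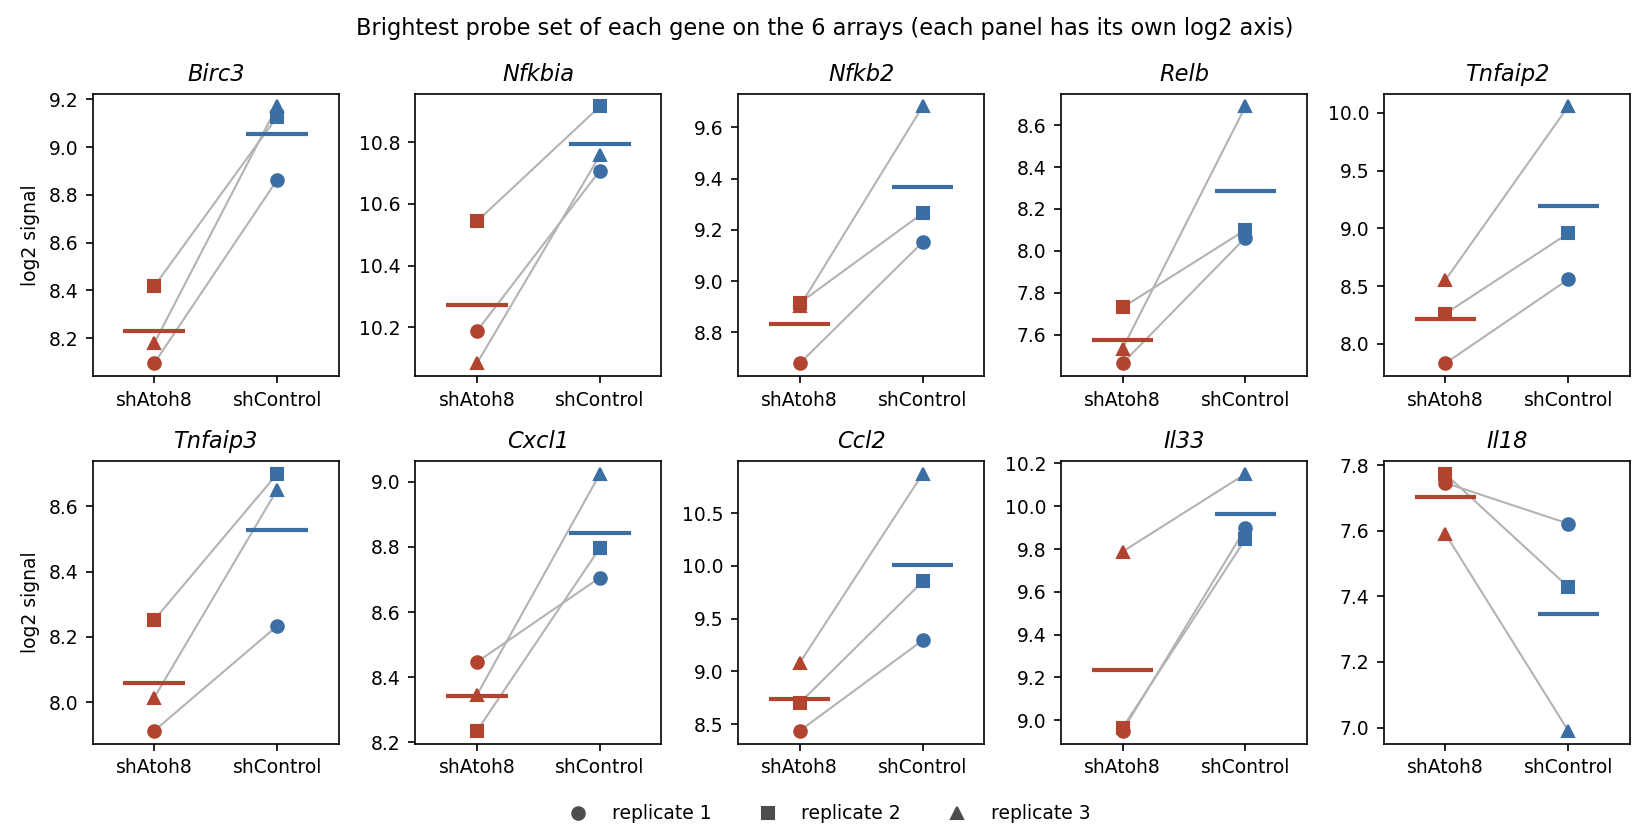
Log2 signal of the brightest probe set of each gene on the 6 arrays, with shAtoh8 (red) left of shControl (blue), bars at the group means, marker shapes for the replicate numbers and grey lines joining arrays of 1 number. The lines rise toward shControl in 9 panels and drop toward shControl for Il18; In 7 of these 9 panels, those of Ccl2 and Tnfaip2 among them, the shControl replicate 3 array is the highest.

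Nfkbia encodes IκBα, the inhibitor that NF-κB itself resynthesises, and was the member with the most probe sets. Its brightest set read 10.19, 10.54 and 10.08 in shAtoh8 replicates 1, 2 and 3, against 10.71, 10.92 and 10.76 in shControl. The groups did not overlap. It averaged 10.27 ± 0.24 in shAtoh8 and 10.79 ± 0.11 in shControl (SD, n = 3 each). The log2 fold change, -0.52 ± 0.13 (SE), is 1.44-fold; limma's adjusted p was 0.135, and 0.0442 under the block. All 5 probe sets had a negative value, between -0.66 and -0.46. Under the block, sets at -0.66 (adjusted p = 0.0380) and -0.64 (0.0318) also passed, and sets at -0.46 (0.131) and -0.48 (0.0798) did not. In 4 of the 5 the groups were apart; in the set at -0.48 the shAtoh8 replicate 2 array, at 10.50, lay above the lowest shControl array, at 10.47.

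Tnfaip3 encodes A20, a ubiquitin-editing enzyme that shuts down signalling below the TNF receptor. It read 7.91, 8.25 and 8.01 in shAtoh8, against 8.23, 8.70 and 8.65 in shControl. The groups overlapped, since shAtoh8 replicate 2 lay just above shControl replicate 1. Its log2 fold change of -0.47 ± 0.15 (SE; 95% interval -0.82 to -0.12) did not pass (limma adjusted p = 0.214, and 0.0573 with the block). The second probe set had -0.38 ± 0.15 and was lower in 2 of 3 pairs, with 0.04 in replicate 1.

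Birc3 encodes cIAP2, a ubiquitin ligase of TNF receptor complexes that also takes part in the degradation of NIK. It read 8.10, 8.42 and 8.18 in shAtoh8, against 8.86, 9.13 and 9.17 in shControl. The gap between the groups was wider than the spread within either. It averaged 8.23 ± 0.17 in shAtoh8 and 9.05 ± 0.17 in shControl (SD, n = 3 each). The log2 fold change, -0.82 ± 0.12 (SE), is 1.77-fold and passed (limma's adjusted p was 0.0414). The differences within replicate numbers were -0.77, -0.71 and -0.99. The other Birc3 probe set, at the 28.3 percentile of brightness against 81.0 for the one used, had a log2 fold change of 0.12 ± 0.09 with 2 of 3 pairs positive. The mean of both sets was -0.35 and did not pass (adjusted p = 0.0601), and the call also ended without shControl replicate 1 (-0.92, adjusted p = 0.0813), 2 (-0.79, 0.169) or 3 (-0.76, 0.121) and without shAtoh8 replicate 1 (-0.76, 0.130) or 3 (-0.80, 0.119). Genes passing in either direction numbered 3, 0 and 21 without shControl replicates 1, 2 and 3, against 210 in the fit reported. Without shAtoh8 replicate 1 or 3 they numbered 1 and 41. Losing the call with an array left out was thus not particular to Birc3. Without shAtoh8 replicate 2, the array that stood apart, 117 genes passed, Birc3 among them (-0.92, adjusted p = 0.0475).

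Nfkb2 and Relb encode p100/p52 and RelB, the dimer of the slower branch, and both are themselves NF-κB targets. Nfkb2 read 8.68, 8.91 and 8.90 in shAtoh8, against 9.15, 9.26 and 9.68 in shControl. Relb read 7.46, 7.73 and 7.53 in shAtoh8, against 8.06, 8.10 and 8.69 in shControl. Neither gene's groups overlapped, and in both the shControl replicate 3 array was the highest. The log2 fold change was -0.53 ± 0.15 (SE) for Nfkb2 (limma adjusted p = 0.164, and 0.0569 with the block) and -0.71 ± 0.18 for Relb (0.127 and 0.0692). The second Nfkb2 probe set, marked for possible cross-hybridisation, had -0.13 ± 0.11, with an interval of -0.38 to 0.13.

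**Figure D2:**
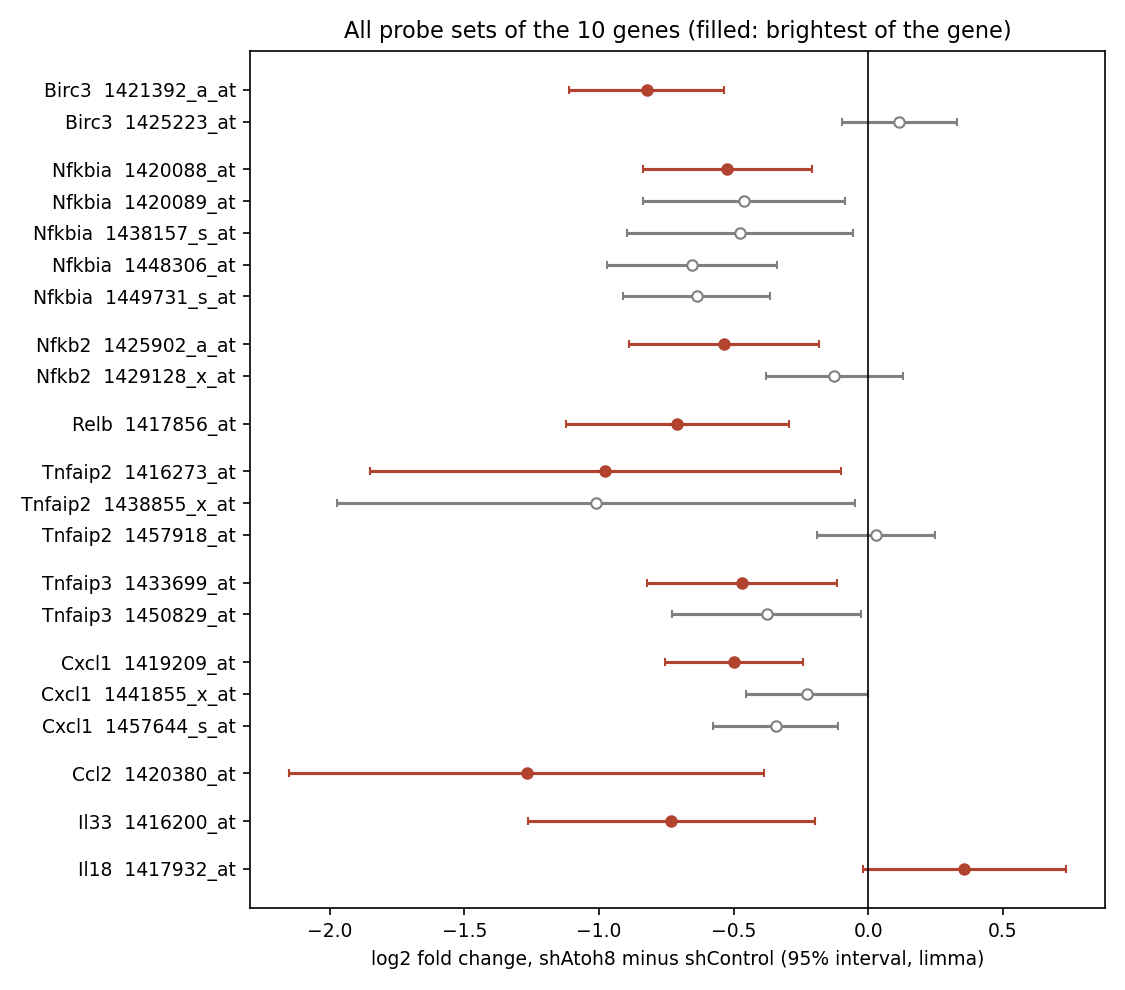
Log2 fold change, shAtoh8 minus shControl, of all 21 probe sets of the 10 genes, with 95% intervals from limma; filled points are the brightest set of each gene and open points the others. Intervals of all 5 Nfkbia sets lie below 0, while the dimmer sets of Birc3 and Tnfaip2 lie at 0.12 and 0.03.

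Tnfaip2, a gene induced by TNF whose product takes part in the outgrowth of membrane nanotubes, read 7.83, 8.26 and 8.55 in shAtoh8, against 8.56, 8.96 and 10.06 in shControl. The groups met without overlapping: the highest shAtoh8 array, replicate 3, lay at the level of the lowest shControl array, replicate 1. Its log2 fold change, -0.98 ± 0.37 (SE), is 1.97-fold; limma's adjusted p was 0.301, and 0.0425 under the block. Differences within replicate numbers were -0.73, -0.70 and -1.51. Of its other sets, 1 marked for possible cross-hybridisation had -1.01 ± 0.41 (adjusted p = 0.0518 under the block), and the dimmest, at the 25.3 percentile of brightness, had 0.03 ± 0.09. Without shControl replicate 3 the Tnfaip2 value was -0.54.

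Ccl2, the chemokine that draws monocytes, had the most negative fold change of the 10 genes. Its single probe set read 8.44, 8.70 and 9.08 in shAtoh8, against 9.29, 9.85 and 10.87 in shControl. All shAtoh8 arrays lay below all shControl arrays, and in both groups replicate 1 was lowest and replicate 3 highest. It averaged 8.74 ± 0.32 in shAtoh8 and 10.01 ± 0.80 in shControl (SD, n = 3 each). This log2 fold change, -1.27 ± 0.38 (SE), is 2.41-fold; limma's adjusted p was 0.184, and 0.0292 under the block. The differences within numbers were -0.86, -1.15 and -1.79, and without shControl replicate 3 the value was -0.83.

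Cxcl1, a chemokine that draws neutrophils, read 8.45, 8.24 and 8.35 in shAtoh8, against 8.71, 8.80 and 9.02 in shControl. The groups did not overlap. Its log2 fold change of -0.50 ± 0.11 (SE) did not pass (limma adjusted p = 0.0949, and 0.0651 with the block). The other sets, almost as bright (both at the 80.3 percentile, against 80.6), had smaller changes and did not pass. They were at -0.34 ± 0.10 (limma adjusted p = 0.175, and 0.159 with the block) and -0.23 ± 0.10 (0.365 and 0.230). In the set at -0.23 the groups overlapped. All 3 sets were lower in all 3 pairs.

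Il33 and Il18 are cytokines of the IL-1 family that epithelial cells store as full-length proteins; IL-33 sits in the nucleus and is released on damage, and pro-IL-18 is activated by caspase-1. Il33 read 8.95, 8.96 and 9.79 in shAtoh8, against 9.90, 9.85 and 10.15 in shControl. The shAtoh8 replicate 3 array lay nearest to shControl, just below its lowest array. Its log2 fold change, -0.73 ± 0.23 (SE), is 1.66-fold; limma's adjusted p was 0.203, and 0.0456 under the block. Replicate 3 had the narrowest difference (-0.36, against -0.95 and -0.88).

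Il18 read 7.75, 7.77 and 7.59 in shAtoh8, against 7.62, 7.43 and 6.99 in shControl. The groups overlapped, because shAtoh8 replicate 3 lay below shControl replicate 1. A log2 fold change of 0.36 ± 0.16 (SE; 95% interval -0.02 to 0.73) did not pass (limma adjusted p = 0.395). With the block the interval was 0.09 to 0.63, and the gene did not pass either (limma adjusted p = 0.157). All 3 pairs were higher, by 0.12, 0.34 and 0.60, and without shControl replicate 3 the value was 0.18.

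**Figure D3:**
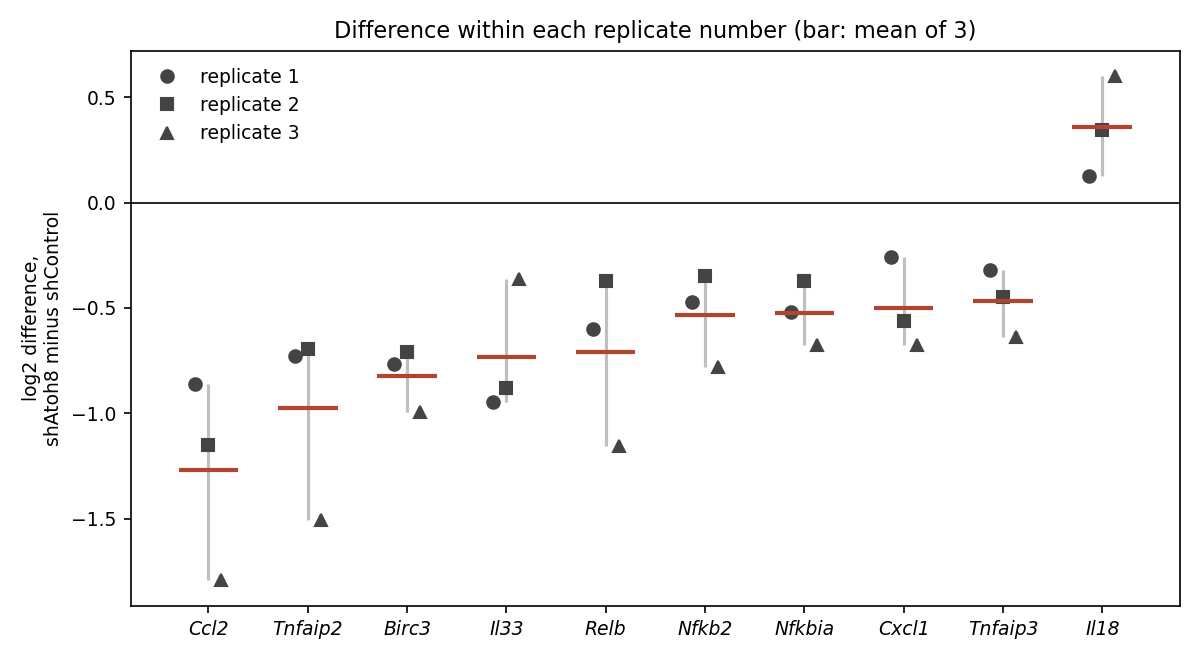
Log2 difference, shAtoh8 minus shControl, within each replicate number for the brightest probe set of the 10 genes, with red bars at the mean of 3. All 3 differences are negative for 9 genes and positive for Il18, and replicate 3 is farthest from 0 for all genes but Il33, where it is nearest.

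The shControl replicate 3 array was the highest of its group in 7 of the 9 genes with a negative value, and the shAtoh8 replicate 1 array the lowest of its group in 7 of the 9. The mean over the 10 genes was 8.37, 8.58 and 8.61 in shAtoh8 replicates 1, 2 and 3, against 8.91, 9.10 and 9.40 in shControl. The median difference within replicate numbers 1, 2 and 3 was -0.56, -0.50 and -0.73. Without shAtoh8 replicate 2, the array that stood apart, the 9 negative values lay between -1.25 (Ccl2) and -0.45 (Cxcl1), Il18 was at 0.32 and the median over the genes was -0.63, and without shControl replicate 3 the median was -0.52.

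Because 9 of the genes had the same sign in every pair, the letters before their transcription starts are shown for those that hold a match to the κB consensus, the 10-base motif NF-κB dimers bind. RefSeq promoters (GRCm38.p6) matched 8 of the 10 genes, with 12 annotated starts; Relb and Ccl2 had no entry. The 250 bases before each start were searched on both strands for the strict consensus and for a relaxed form that allows either purine at the third base and any base at the fourth. A strict match lay before at least 1 start of 5 of the 8 genes (62.5%), against 8.23% of the 27025 genes of the table and 29.8% of 84 other NF-κB pathway genes. For the relaxed form the shares were 62.5%, 25.6% and 58.3%. The genes were chosen as NF-κB genes, and a match is a description of letters, not of binding. Birc3, Il33 and Il18 held neither form in this window. The sequences below run 5′ to 3′ on the strand of the gene and end at the last base before its start, with strict matches in capitals: Nfkbia is at chr12:55492648-55492897 (minus strand), Nfkb2 at chr19:46304487-46304736 (plus, the first of 3 starts), Tnfaip2 at chr12:111442411-111442660 (plus), Tnfaip3 at chr10:19015411-19015660 (minus, the first of 2 starts) and Cxcl1 at chr5:90890995-90891244 (plus).
Nfkbia: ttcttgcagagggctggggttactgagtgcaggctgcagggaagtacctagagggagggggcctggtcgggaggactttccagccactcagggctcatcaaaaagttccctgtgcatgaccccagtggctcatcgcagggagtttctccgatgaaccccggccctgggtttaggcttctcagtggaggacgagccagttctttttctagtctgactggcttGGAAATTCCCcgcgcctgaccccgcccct
Nfkb2: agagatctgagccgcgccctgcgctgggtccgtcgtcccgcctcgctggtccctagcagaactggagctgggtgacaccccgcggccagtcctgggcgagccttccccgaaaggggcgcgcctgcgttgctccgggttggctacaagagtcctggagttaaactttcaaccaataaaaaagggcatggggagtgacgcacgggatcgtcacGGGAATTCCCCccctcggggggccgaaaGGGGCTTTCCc
Tnfaip2: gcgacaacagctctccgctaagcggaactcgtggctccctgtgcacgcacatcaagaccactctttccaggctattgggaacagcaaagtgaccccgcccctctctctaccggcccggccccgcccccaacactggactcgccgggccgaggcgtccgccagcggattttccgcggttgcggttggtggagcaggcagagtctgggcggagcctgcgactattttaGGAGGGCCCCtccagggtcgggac
Tnfaip3: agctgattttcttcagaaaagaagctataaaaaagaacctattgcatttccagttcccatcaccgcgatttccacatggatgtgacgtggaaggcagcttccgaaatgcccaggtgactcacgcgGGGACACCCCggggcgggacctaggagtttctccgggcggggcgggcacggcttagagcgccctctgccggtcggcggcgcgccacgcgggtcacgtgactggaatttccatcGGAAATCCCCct
Cxcl1: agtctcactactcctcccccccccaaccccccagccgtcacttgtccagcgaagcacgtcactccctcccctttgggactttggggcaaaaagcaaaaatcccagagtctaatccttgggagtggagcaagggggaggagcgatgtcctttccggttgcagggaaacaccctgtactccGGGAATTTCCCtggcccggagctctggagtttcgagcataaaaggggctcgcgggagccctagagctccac

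The Nfkbia match GGAAATTCCC spans 29 to 20 bases before the start. Nfkb2 holds the palindrome GGGAATTCCC at 39 to 30, which overlaps a second match 1 base on, and GGGGCTTTCC at 11 to 2. Each of its other starts has 1 strict match farther away, at 236 to 227 and at 225 to 216. Tnfaip3 has GGAAATCCCC at 12 to 3 and GGGACACCCC at 125 to 116. In Cxcl1 the pair of overlapping matches lies at 71 to 61, and in Tnfaip2 the match is GGAGGGCCCC at 24 to 15. Of the 5 genes with a match, Nfkbia and Tnfaip2 fell with the replicate block and the other 3 did not pass, and of the 3 without one, Birc3 and Il33 fell with it.

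**Figure D4:**
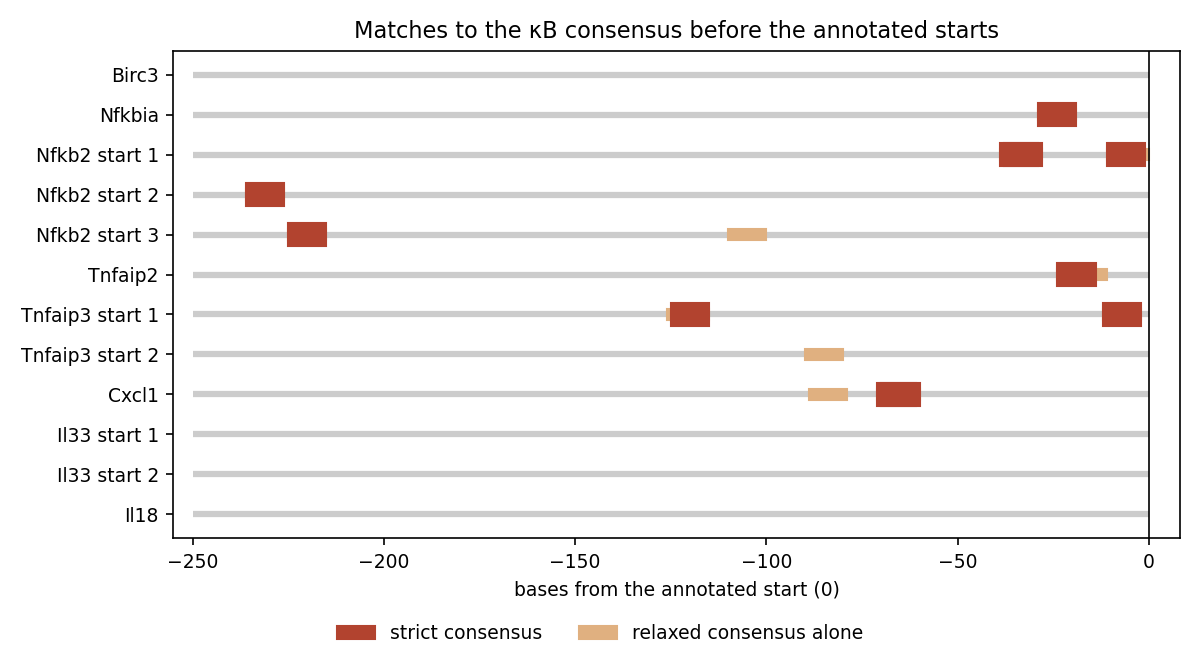
Matches to the κB consensus in the 250 bases before the 12 annotated starts of 8 genes, with the distance from the start on the x axis; red boxes are strict matches and pale boxes positions matched only by the relaxed form. Strict matches lie within 40 bases of a start in Nfkbia, Nfkb2, Tnfaip2 and Tnfaip3 and at 71 to 61 in Cxcl1.

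The rest of the pathway was read from 9 lists of 106 genes, of which 95 had a probe set with a single symbol. None of the 95 passed in limma (0, against 15 lower and 8 higher at an unadjusted p under 0.05). Of all genes, 0.638% were called lower and 0.517% higher, and 8.82% and 8.72% at the unadjusted p. With the replicate block 4 fell and none rose (0) on the brightest probe set of the gene, beside the 2.75% and 1.92% of all genes given above. The median of the 95 was -0.02, with 53 negative and 42 positive values, beside 46.9% of all genes negative. Nfkb1, Chuk and Il1rl1, the IL-33 receptor, were among the genes with no such probe set.

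Of the other Rel subunits, Rela, the p65 subunit of the main dimer, read 10.22, 10.40 and 10.19 in shAtoh8, against 10.50, 10.51 and 10.55 in shControl. Its groups did not overlap, but the log2 fold change of -0.25 ± 0.09 (SE) did not pass (limma adjusted p = 0.253). Rel was at -0.02 ± 0.14. Among 6 other IκB proteins, Bcl3, a nuclear member that works with p50 and p52 dimers, fell with the replicate block: it read 8.53, 9.06 and 8.57 in shAtoh8, against 9.18, 9.46 and 9.18 in shControl, a log2 fold change of -0.55 ± 0.16 (limma adjusted p = 0.173 without and 0.0380 with the block). Nfkbid was at 0.32 ± 0.16 (0.436).

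Upstream of the dimers the values went both ways. Of 9 kinases and their TAB partners 6 were positive, with a median of 0.22, and Tab2, the adaptor that brings the kinase TAK1 to ubiquitin chains, fell with the block. Tab2 read 9.96, 10.01 and 9.44 in shAtoh8, against 10.59, 10.58 and 10.43 in shControl, a log2 fold change of -0.73 ± 0.16 (SE; limma adjusted p = 0.0891 without and 0.0318 with the block). Its other probe set had -0.82 ± 0.15 (0.0604 and 0.0301). Ikbke, an IκB kinase-related enzyme, was at 0.32 ± 0.09 (0.144). The 20 receptors and adaptors had 10 negative and 10 positive values and a median of -0.02. The smallest p there belonged to the receptor Cd40 (0.42 ± 0.10, limma adjusted p = 0.101) and the ubiquitin ligase Traf6 (0.39 ± 0.10, 0.145; 1 of its other 4 probe sets was negative). Of the other Cd40 probe sets, 1 was at 0.69 ± 0.12 and rose under the block (adjusted p = 0.0289; 0.0529 without it), and 1 was at 0.26 ± 0.08 (0.196, and 0.164 under the block).

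Among 11 other feedback regulators, with a median of 0.05, Pdlim2, which promotes the breakdown of nuclear p65, fell with the block. It read 7.14, 7.21 and 7.79 in shAtoh8, against 7.78, 7.83 and 8.75 in shControl. Its groups overlapped, and both replicate 3 arrays were the highest of their group. The log2 fold change was -0.74 ± 0.29 (SE; limma adjusted p = 0.310 without and 0.0292 with the block). Otulin, which cuts linear ubiquitin chains, was at 0.28 ± 0.08 (0.189).

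The 21 other cytokines had a median of -0.03, and 9 of them were brighter than the median probe set. None passed with the block (0 lower, 0 higher), beside 2.75% of all genes lower and 1.92% higher. Without it, 2 were lower and 0 higher at an unadjusted p under 0.05 in limma, beside 8.82% and 8.72% of all genes. Cx3cl1 was at -0.29 ± 0.10 (SE; limma adjusted p = 0.263; 1 of its other 3 probe sets was positive) and Ccl20, a chemokine of epithelia, at -0.54 ± 0.20 (0.290). Of 14 other target genes, with a median of -0.03, the kinase Pim1 (-0.62 ± 0.11, limma adjusted p = 0.0618, and 0.0541 with the block) and the adhesion molecule Icam1 (-0.66 ± 0.20, 0.196 and 0.0558) had the smallest p. Their groups did not overlap.

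In the IL-33 and IL-18 system, Il18rap, the accessory chain of the IL-18 receptor, fell with the block. It read 7.59, 8.05 and 8.15 in shAtoh8, against 8.35, 8.55 and 9.10 in shControl, a log2 fold change of -0.74 ± 0.22 (SE; limma adjusted p = 0.187 without and 0.0309 with the block). Its second probe set had -1.06 ± 0.31 (0.184 and 0.0160). Gsdmd, the pore protein through which the mature cytokines leave the cell, was at -0.41 ± 0.09 (0.0973), the protease Casp8 was at -0.35 ± 0.08 (0.106), and 7 of the 9 genes of this list were negative, with a median of -0.20. Casp1 lay at the 6.23 percentile of brightness. The 3 chemokine receptors measured were between -0.08 and 0.03, with Ccr2 at -0.08 ± 0.10 and Cxcr2 at -0.05 ± 0.08.

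**Figure D5:**
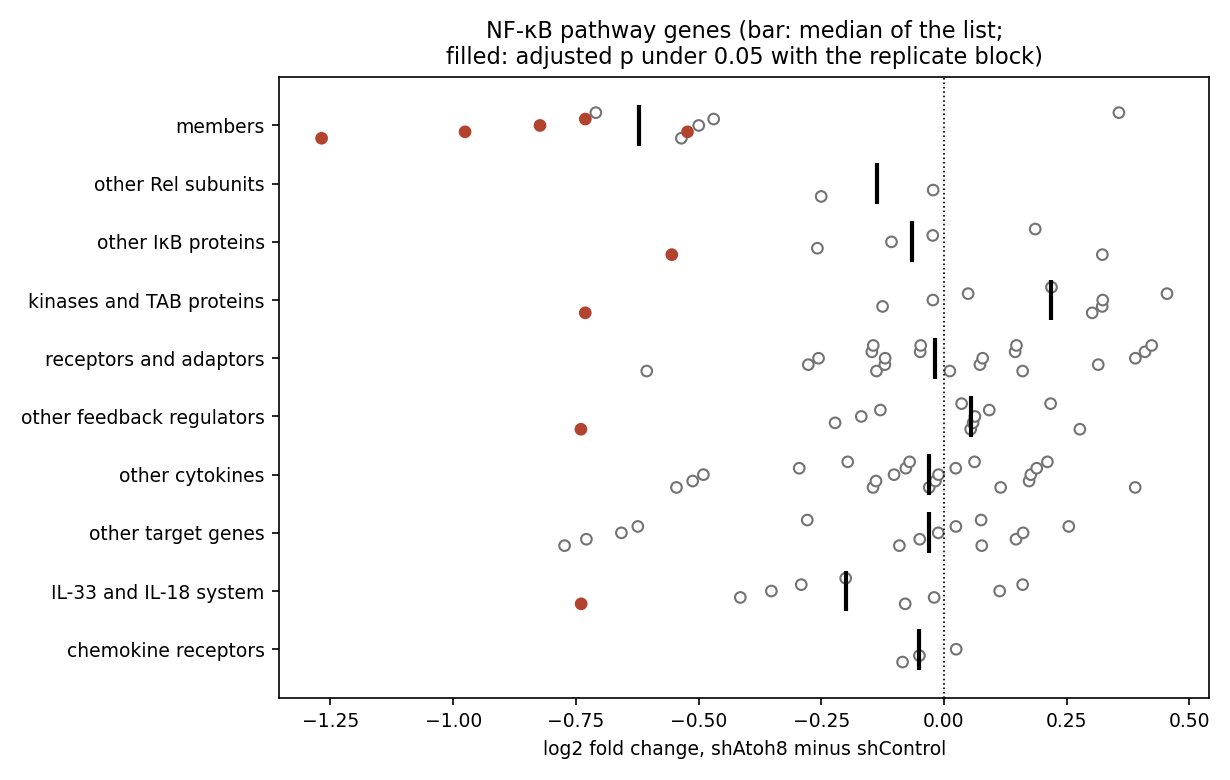
Log2 fold change, shAtoh8 minus shControl, of the 10 genes and of 95 other NF-κB pathway genes by list, each point 1 gene and each bar the median of a list; filled points passed with the replicate block. The medians of the other lists lie between -0.20 and 0.22, and that of the 10 genes at -0.62.

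Likeness of pattern was read as Pearson's r over the 6 arrays, among genes brighter than the median gene (9095 compared), and since both groups enter it, it follows the difference between groups as well as the spread within them. The genes most like Birc3 were Aff4, Maff and Tiparp (r of 0.996, 0.995 and 0.991). For Nfkbia they were Ptpra, 2310022B05Rik and Golga4 (0.994, 0.993 and 0.991), and for Il18 Brca1, Tmem14a and Anxa13 (0.994, 0.993 and 0.993). With 6 arrays and so many genes, such values are a description and carry no test.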

How the data were processed

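Biotin-labelled cRNA of 3 shAtoh8 and 3 shControl cultures was hybridised to Affymetrix arrays, per the labels' protocols. The authors deposited log2 signals, 1 value per probe set and array, computed with RMA in the affy package, per the submitters' processing notes; which versions is not given in the sources used here. RMA corrects background, quantile-normalises and summarises probes, so a shift of most genes one way would have been removed. Of 45101 probe sets, 64 controls were left out. Symbols came from the platform annotation: 34945 probe sets had 1 symbol, 932 several and 9160 none, and only those with 1 named a gene.

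The fit was limma 3.58.1 in R 4.3.3 (lmFit, eBayes), two-sided, with Benjamini-Hochberg adjustment over 45037 probe sets and a threshold of 0.05; errors are moderated standard errors. No brightness filter was used, and the number of arrays limits the precision. The script was tested on simulated arrays with known changes. Deviations from the group means correlated between arrays of the same replicate number at 0.407, 0.187 and 0.433, and between different numbers at -0.351 to 0.0292, so the numbers were taken to pair the arrays. In the fit reported, each fold change compares 1 probe set with itself between groups. Levels of different probe sets were ranked to choose the brightest set of a gene and to describe brightness.

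The members, the pathway lists and the alternatives were chosen with earlier results of these data known. Named pathway genes are those that passed with or without the block, and otherwise the smallest p of each list, up to 2 genes. Promoter sequences came from RefSeq (GRCm38.p6), whose table was used for letters before the starts alone.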

Additional observations from a re-analysis of the deposited data

How the results depend on the processing

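Every alternative kept the sign of all 10 fold changes, in 20 alternatives for each gene. Several of them, such as the replicate block and a changed adjustment or threshold, leave the fold change as it was. Where groups do not overlap, leaving out an array cannot turn the sign either. The kept signs are therefore largely fixed beforehand and are no separate evidence. The number of the 10 genes that passed lower in limma, 1 in the fit reported, was 5 with the replicate block, 0 with probe sets averaged per gene, and 2 at an adjusted p under 0.1, beside 2.75%, 1.46% and 2.08% of all genes. It was 0 or 1 with 1 array left out at a time, with 1 only without shAtoh8 replicate 2 (0.418% of all genes lower). Without any other single array, 0.00% to 0.148% of all genes were called lower. In fits added after the data were seen, the block without both arrays of replicate number 1, 2 or 3 gave 0, 6 and 0 of the 10 (0.00%, 3.66% and 0.00% of all genes lower), and the block on probe sets averaged per gene gave 9 (6.06% of all genes lower). No gene of the 10 passed higher in any alternative run (0). Over the 95 pathway genes, 0 passed lower in the fit reported, 1 with brighter probe sets alone (69 genes measured), 4 with the replicate block, 2 with probe sets averaged per gene, 1 adjusted over 1 probe set per gene and 3 at an adjusted p under 0.1. In the same order, 0.638%, 1.55%, 2.75%, 1.46%, 1.18% and 2.08% of all genes measured were lower. The added fits gave 5 with the block without replicate number 2 (3.66% of all genes lower), and 12 with the block on averaged probe sets (6.06%). Higher calls were 1 with averaged probe sets, and 1 and 4 in these added fits. Of all 18193 genes, 459, 966 and 1916 were called there in either direction. The median over the 10 genes was -0.49 with averaged probe sets, with or without the block, and -0.47 with the block without replicate number 3, against -0.62; other alternatives gave -0.70 to -0.52. Averaging takes in all probe sets of a gene. With it Birc3 moved from -0.82 to -0.35, Tnfaip2 from -0.98 to -0.65 and Nfkb2 from -0.53 to -0.33. Cxcl1 moved from -0.50 to -0.36 and Tnfaip3 from -0.47 to -0.42, while Nfkbia went the other way, from -0.52 to -0.55. The cause of these and the other changes was not tested. Median centring lowered all fold changes by 0.02. On the brightest probe sets of these genes, the block changed no call beyond those named. With 3 arrays a group, a miss in limma does not show that a gene did not differ.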
